A study of Mus musculus with 6 samples.

Results

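A set of 10 keratin and epidermal adhesion genes, taken by symbol from the 23406 gene names of the deposited tables, were followed across mouse embryonic fibroblasts sampled on day 7 of reprogramming with OSKM, the usual shorthand for Oct4, Sox2, Klf4 and Myc. The 10 genes are the simple keratins Krt7, Krt8, Krt18 and Krt19, the epidermal keratins Krt14 and Krt17, the desmosomal genes Dsp and Perp, the corneodesmosome gene Cdsn and the 14-3-3 sigma gene Sfn. All 10 had a row of their own, and all 10 passed the filter on low values (at least 1 FPKM in at least 2 of the 6 libraries). They were picked on these same libraries because simple keratins and epidermal genes seemed to move apart, so their differences are described and not tested.

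Cells with the alleles Adar1 Fl/Fl were given vehicle in the WT group (n = 2) or 4OHT, the usual shorthand for 4-hydroxytamoxifen, in the KO group (n = 2). Cells with Adar1 Fl/E861A were given vehicle in the HET group (n = 1) or 4OHT in the MUT group (n = 1). Adar1 encodes an RNA editing enzyme, E861A is a change that removes its deaminase activity, and Fl denotes a floxed allele, which Cre recombinase can cut out. The sources used here name neither a Cre line nor the deleted exons nor separate cultures for the replicates, so the p-values cover the spread between these libraries alone, which may be technical. Every KO and MUT library also received 4OHT, so drug and allele loss cannot be told apart, and MUT keeps 1 allele, so allele dose and the E861A change cannot be told apart either.

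Keratins build the intermediate filaments of epithelial cells. Each filament pairs an acidic type I chain (Krt14, Krt17, Krt18 and Krt19 here) with a basic type II chain (Krt7 and Krt8 here). Simple, single-layered epithelia and early embryonic epithelium use Krt8 with Krt18, often joined by Krt7 and Krt19, whereas basal keratinocytes of the epidermis use Krt5 with Krt14, and Krt17 is known from skin appendages and wounded epidermis. Desmosomes, the spot-like junctions held together by cadherins, anchor these filaments through desmoplakin, and in the outermost skin layer they are remodelled into corneodesmosomes that contain corneodesmosin. Fibroblasts pass through a mesenchymal-to-epithelial transition during reprogramming.

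The 10 genes lie at 6 places in the genome (GENCODE release M21, GRCm38). Krt7 (chr15:101411043-101430313), Krt8 (chr15:101996698-102004482) and Krt18 (chr15:102028180-102032027) belong to the type II cluster on chromosome 15, where Krt18 is a type I gene set beside Krt8, 23.7 kb away. Krt19 (chr11:100140810-100148665), Krt14 (chr11:100203162-100207548) and Krt17 (chr11:100256217-100261029) lie in that order in the type I cluster on chromosome 11. Krt19 and Krt14 are 54.5 kb apart, and Krt14 and Krt17 are 48.7 kb apart with Krt16 between them. Dsp lies at chr13:38151294-38198577, Perp at chr10:18845020-18857073, Cdsn at chr17:35552128-35557180 and Sfn at chr4:133600556-133602168. All are protein-coding. Krt7, Krt8 and Dsp each overlap a gene on the opposite strand, and since the sources used here do not say whether strand was used, reads of such a partner cannot be told apart from theirs.

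Start regions are shown for 4 genes that moved in opposite directions and in which 1 short motif recurs. Windows of 6 of the 10 genes, in 7 entries of RefSeq's GRCm38.p6 promoter table, were used. In the 250 bases before the start, CACCTG, searched on both strands, was present in 5 of the 7 entries, belonging to 4 of the 6 genes, and in 17.2% of all 32851 promoters. CACCTG is the letter sequence that repressors of epithelial genes such as the Snail and Zeb factors are known to recognise. Capitals mark CACCTG or its reverse complement CAGGTG. For Krt7, whose window overlaps exons of its own GENCODE transcripts, only 30 bases around the motif are given, and for Krt18 the bases before its GENCODE start.
Krt18, chr15:102027966-102028179, plus strand: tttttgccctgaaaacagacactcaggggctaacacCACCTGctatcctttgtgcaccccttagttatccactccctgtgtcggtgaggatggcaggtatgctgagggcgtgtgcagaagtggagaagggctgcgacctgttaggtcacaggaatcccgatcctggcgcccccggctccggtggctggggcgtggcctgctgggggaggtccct
Krt7, chr15:101412347-101412376, plus strand: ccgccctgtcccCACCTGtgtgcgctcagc
Sfn, chr4:133602169-133602418, minus strand: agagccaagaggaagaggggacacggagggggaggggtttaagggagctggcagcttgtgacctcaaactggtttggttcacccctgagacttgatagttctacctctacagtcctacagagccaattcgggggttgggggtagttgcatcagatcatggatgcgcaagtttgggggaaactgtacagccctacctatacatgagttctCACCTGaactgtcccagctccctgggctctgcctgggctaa
Cdsn, upstream start, chr17:35542851-35543100, plus strand: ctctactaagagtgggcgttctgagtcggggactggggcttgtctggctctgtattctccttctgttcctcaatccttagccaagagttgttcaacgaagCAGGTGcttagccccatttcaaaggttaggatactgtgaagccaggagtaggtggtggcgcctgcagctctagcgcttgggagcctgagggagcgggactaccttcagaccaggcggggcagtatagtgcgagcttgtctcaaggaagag
Cdsn, downstream start, chr17:35551878-35552127, plus strand: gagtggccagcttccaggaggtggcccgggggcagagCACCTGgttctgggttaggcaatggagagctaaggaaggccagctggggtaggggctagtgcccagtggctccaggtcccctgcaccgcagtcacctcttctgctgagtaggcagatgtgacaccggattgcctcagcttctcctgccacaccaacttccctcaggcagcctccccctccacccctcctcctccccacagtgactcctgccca
The motif stood in the windows of Krt7 and Cdsn, which were higher in the 4OHT libraries, and of Krt18 and Sfn, which were lower there. It was not found in the windows of Krt14 and Dsp. The windows of Krt7 and Krt14 lie inside their GENCODE genes, so the bases before the GENCODE starts of these genes were not searched. Of the other motifs searched on both strands, GGGCGG was found in the windows of Krt7 and Dsp (32.7% of all promoters) and TGATGNAA in that of Sfn alone (3.45%). TATAAA (12.4%) and TGANTCA (6.75%) were found in none. None of these motifs contains another, and a match is a description of letters, with no binding measured here.

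Values are FPKM, fragments scaled to transcript length and to the mapped total, so levels can be set side by side between genes. The steps between low values, read at an assumed fragment length of 200 bases, put the libraries at an estimated 16000000 to 21100000 fragments, and the members' values at an estimated 29 fragments or more, the fewest being for Krt14. Replicates correlated at r = 0.995 across genes in WT and in KO. The Adar row itself read 19.6 and 19.5 FPKM in WT, 34.2 and 31.3 in KO, 17.0 in HET and 33.0 in MUT, which is higher after 4OHT. Without the deleted exons this row does not check the labels. The label of the cells was checked against lists of marker genes. Fibroblast markers summed to 3749 and 3369 FPKM in WT, 673 and 560 in KO, 3949 in HET and 1650 in MUT, and 7 of 8 fell in KO. The 8 pluripotent markers, all of which fell in KO, summed to 592 and 472, 21.3 and 7.69, 609 and 41.8 in the same order. They include Pou5f1, which encodes Oct4, an OSKM factor whose endogenous and introduced copies are not separated here. The simple epithelium markers (Epcam, Cdh1 and claudins among them) summed to 110 and 111, 8.46 and 7.67, 143 and 10.2, and 7 of 7 tested fell. Of these 7, 4 had passed the filter on low values only through vehicle libraries, as had 4 of the pluripotent markers, so falls are favoured among them. Fell here means called lower in limma at an adjusted p under 0.05, as 28.2% of all tested genes were. Keratin levels thus moved beside a drop of epithelial, pluripotent and fibroblast markers, whose part in the results was not tested, and in such bulk RNA fewer cells of a type and less RNA per cell cannot be told apart.

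Across the 10 genes, KO stood above WT for Krt7, Krt19 and Cdsn and below it for the other 7. Differences are given on the log2(FPKM + 1) scale, which understates the change of low genes, with limma's standard error (SE), while folds are ratios of mean FPKM. On the log2 scale 6 of the 10 genes differed by at least 2-fold between KO and WT, where 14.1% of the 12266 tested genes did. The 2 higher in KO (Krt7 and Cdsn) compare with 4.68% of tested genes and the 4 lower (Krt8, Krt14, Krt17 and Sfn) with 9.39%, but the choice of members used that contrast. All 10 were under an adjusted p of 0.05 in limma, as were 57.7% of tested genes, 29.5% higher and 28.2% lower in KO, so this too is only a description. The split did not follow the division into simple and epidermal genes, since 2 of the 4 simple keratins were higher and 2 lower, and of the 6 epidermal genes Cdsn alone was higher.

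**Figure D1:**
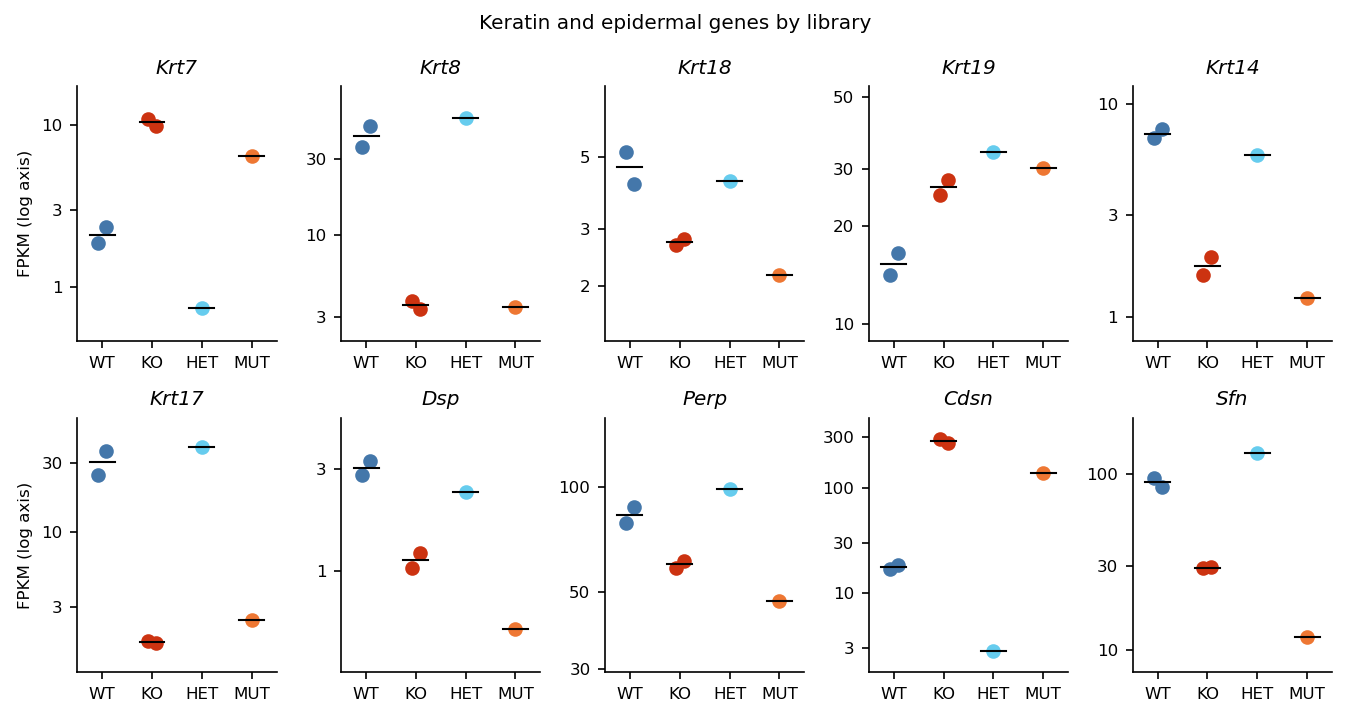
FPKM of each of the 10 genes by library on a log axis, with points for single libraries and a bar for the group mean (WT and KO n = 2, HET and MUT n = 1). Cdsn reached 290 and 263 FPKM in KO, Krt17 was under 3 FPKM in every 4OHT library, and for Krt19 the HET point at 33.8 lies above all others.

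Krt8, the main type II keratin of simple epithelium, read 36.0 and 48.5 FPKM in the WT libraries, 3.82 and 3.40 in KO, 54.7 in HET and 3.50 in MUT. The 3 vehicle libraries were all high, the 3 4OHT libraries all low, and no value lay between 3.82 and 36.0. The mean stood at 42.2 ± 8.84 FPKM in WT and 3.61 ± 0.30 in KO (SD, n = 2 each). The means were 11.7-fold apart, with a log2 difference of -3.21 (SE 0.14). HET and MUT differed by 15.6-fold. Most of the spread within a group was between the WT replicates, at 0.42 on the log2 scale.

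Its type I partner Krt18 moved far less. Krt18 read 5.16 and 4.12 FPKM in WT, 2.67 and 2.79 in KO, 4.20 in HET and 2.17 in MUT. Vehicle and 4OHT libraries did not overlap, yet the log2 difference was only -0.59 (SE 0.13) between KO and WT and -0.71 between MUT and HET. The partners were therefore far from equal in the vehicle libraries, where the ratio of Krt8 to Krt18 was 6.98 and 11.8 in WT and 13.0 in HET. After 4OHT the ratio was 1.43 and 1.22 in KO and 1.61 in MUT, nearer to 1.

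Krt7, a type II keratin of simple and ductal epithelium, went the other way from Krt8, with which it shares the cluster on chromosome 15 at a distance of 566 kb. It read 1.87 and 2.34 FPKM in WT, 10.8 and 9.83 in KO, 0.751 in HET and 6.45 in MUT. Every 4OHT library exceeded every vehicle library, and HET was the lowest of all. KO averaged 10.3 ± 0.69 FPKM against 2.11 ± 0.33 in WT (SD, n = 2 each). It was 4.90-fold higher, with a log2 difference of 1.87 (SE 0.12), and MUT was 8.59-fold above HET. Krt7 was thereby the larger of the 2 chains after 4OHT: the ratio of Krt7 to Krt8 was 2.82 and 2.89 in KO and 1.84 in MUT, against 0.0521 and 0.0482 in WT and 0.0137 in HET.

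Krt19, the small type I keratin known for lacking the usual tail domain, read 14.2 and 16.5 FPKM in WT, 24.9 and 27.8 in KO, 33.8 in HET and 30.3 in MUT. The KO libraries lay above the WT libraries, 1.72-fold in the mean (log2 0.75, SE 0.11), but HET, a vehicle library, lay above them all, 2.21-fold over WT. MUT was at 0.896 of HET (log2 -0.15), a gap smaller than the 0.20 between the WT replicates. Krt19 was the single member whose vehicle and 4OHT libraries overlapped. For the other 9 members they did not overlap, which was also so for 59.9% of all tested genes. Of these 9, Krt7 and Cdsn were higher with 4OHT (30.6% of tested genes) and 7 lower (29.3%).

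Krt17, a type I keratin of appendages and stressed epidermis, was among the highest keratins with vehicle, at 24.8 and 36.6 FPKM in WT and 38.9 in HET. It read 1.74 and 1.69 in KO and 2.45 in MUT. The ratio of WT to KO was the largest among the 10 genes: the WT mean of 30.7 ± 8.36 FPKM was 17.9-fold the KO mean of 1.72 ± 0.03 (SD, n = 2 each). The log2 difference was -3.52 (SE 0.16), and HET was 15.9-fold above MUT. The WT replicates were 0.54 apart on the log2 scale, the widest replicate gap of any member and small beside that difference.

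Krt14, the type I keratin of basal keratinocytes, followed at a lower level. Values were 6.93 and 7.64 FPKM in WT, 1.58 and 1.90 in KO, 5.78 in HET and 1.23 in MUT. Vehicle and 4OHT libraries were well separated, by 4.19-fold between WT and KO (log2 -1.60, SE 0.12) and 4.70-fold between HET and MUT. Its usual type II partner Krt5 was close to absent, between 0.0208 and 0.216 FPKM in all 6 libraries, so Krt14 was measured here without a matching level of its epidermal partner.

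Dsp encodes desmoplakin, the plaque protein that ties keratin filaments to the desmosome. It was one of the lowest members, at 2.81 and 3.26 FPKM in WT, 1.03 and 1.22 in KO, 2.35 in HET and 0.539 in MUT. MUT lay below both KO libraries, and all 4OHT values lay below all vehicle values. The log2 difference was -0.92 (SE 0.13) between KO and WT and -1.12 between MUT and HET.

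Perp encodes a tetraspan membrane protein of desmosomes that p53 and p63 can induce. Levels were high everywhere, at 78.5 and 87.2 FPKM in WT, 58.6 and 61.3 in KO, 98.5 in HET and 47.1 in MUT. The difference was the smallest of the 10 between KO and WT, 1.38-fold lower in KO (log2 -0.46, SE 0.10), and it was 2.09-fold between HET and MUT. Replicates were within 0.15 on the log2 scale.

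Cdsn encodes corneodesmosin, the adhesive glycoprotein of corneodesmosomes, and stood opposite to every other epidermal gene of the set. It read 16.8 and 18.4 FPKM in WT, 290 and 263 in KO, 2.81 in HET and 139 in MUT. All 3 4OHT libraries were far above all 3 vehicle libraries, and HET was 6.26-fold below WT. KO averaged 277 ± 19.2 FPKM against 17.6 ± 1.14 in WT (SD, n = 2 each), or 15.7-fold higher. The log2 difference was 3.90 (SE 0.10). MUT was 49.7-fold above HET, while its own level was 1.99-fold below that of KO. The row of the deposited tables begins 8986 bases upstream of the GENCODE start, near the upstream RefSeq start printed above.

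Genes beside Cdsn on chromosome 17 did not share its direction. Psors1c2, next to Cdsn, read 2.98 and 3.03 FPKM in WT, 0.202 and 0.352 in KO, 3.55 in HET and 0.658 in MUT. Pou5f1, the pluripotency gene that encodes Oct4, lies 41.4 kb away and read 222 and 175, 8.03 and 2.50, 272 and 12.8 in the same order. Oct4 is also one of the OSKM factors. Endogenous and introduced copies are not separated in that row, so it may not reflect this locus alone. The Psors1c2 and Pou5f1 rows were both lower in all 4OHT libraries while Cdsn was higher. Tcf19, a neighbour between Pou5f1 and Cdsn, read 15.0 and 14.1, 8.32 and 7.51, 18.1 and 15.1, and Cchcr1 read 16.5 and 14.3, 13.9 and 13.6, 16.4 and 14.8. These 4 neighbours were chosen for their position.

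Sfn encodes 14-3-3 sigma, the epithelial member of a family of phosphoprotein adaptors and a p53 target that holds cells in G2. Values were 95.0 and 85.0 FPKM in WT, 29.1 and 29.6 in KO, 131 in HET and 11.9 in MUT. WT exceeded KO 3.07-fold (log2 -1.58, SE 0.10), and HET exceeded MUT 11.0-fold (log2 -3.36). MUT was 2.46-fold below KO, so the 4OHT libraries of the 2 allele backgrounds did not meet at 1 level. The WT replicates were 0.16 apart on the log2 scale and the KO replicates 0.02.

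Set in order of level, Sfn and Perp headed the WT libraries with overlapping values, Krt8 and Krt17 came next and also overlapped, and Cdsn and Krt19 followed, with ranges of 16.8 to 18.4 and 14.2 to 16.5 FPKM. Krt14, Krt18, Dsp and Krt7 were the lowest there, in that order, without overlap. In KO, Cdsn came first, then Perp, Sfn, Krt19 and Krt7, and Krt8, Krt18, Krt14, Krt17 and Dsp all lay under 4 FPKM, Krt14 and Krt17 overlapping. Cdsn thus moved from the fifth place to the first, and Krt17 from the fourth to the ninth.

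In the Fl/E861A background, 8 of the 10 genes differed by at least 2-fold on the log2 scale between MUT and HET, each 1 library, where 13.7% of tested genes did. The 2 higher in MUT were Krt7 and Cdsn and the 6 lower were Krt8, Krt14, Krt17, Dsp, Perp and Sfn, against 4.93% and 8.77% of tested genes. Krt18 and Krt19 were under 2-fold. This comparison has no replicate check; between replicates, 12 tested genes differed by at least 2-fold in WT and 16 in KO.

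**Figure D2:**
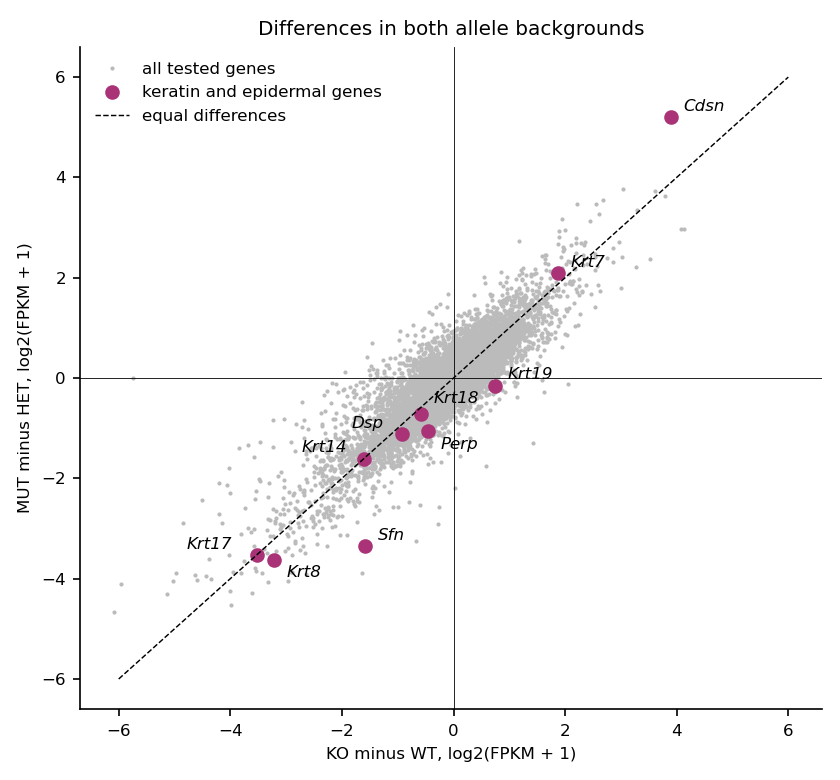
Log2 difference of KO against WT (x axis) and of MUT against HET (y axis) on the log2(FPKM + 1) scale, with all 12266 tested genes in grey, the 10 keratin and epidermal genes in purple, and a dashed line of equal differences. Krt17, Krt14 and Krt7 lie close to the line, Sfn lies below it at -1.58 and -3.36, and Cdsn is at the upper right at 3.90 and 5.20.

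In the vehicle libraries of day 7, the backgrounds differed at 2 of the 10 genes by at least 2-fold, against 2.47% of tested genes. Krt19 was higher in HET than in WT (log2 1.10, 0.75% of tested genes) and Cdsn lower (log2 -2.29, 1.72%). Krt7 was 0.82 lower on the same scale, and Sfn 0.54 higher. The other 6 members differed by at most 0.38. After 4OHT, Sfn alone differed by at least 2-fold between MUT and KO (log2 -1.23), against 2.41% of tested genes in either direction and 0.978% lower in MUT, with Cdsn just under it at -0.98. Krt8 was at nearly the same level in MUT and KO (log2 -0.03). HET and MUT are single libraries, so whether these gaps belong to the allele or to the library cannot be told apart.

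Adding all keratin rows showed how the chains shared the total. Type I rows (27) summed to 83.2 and 100.2 FPKM in WT, 38.6 and 43.2 in KO, 126 in HET and 42.2 in MUT. Type II rows (21) summed to 40.7 and 55.6, 17.0 and 15.2, 57.9 and 12.4. Both totals were lower in each 4OHT library than in any vehicle library, and the ratio of type I to type II stayed between 1.80 and 3.39. Within type II, Krt8 made up 88.4% and 87.2% in WT and 94.4% in HET, but 22.6% and 22.3% in KO and 28.1% in MUT. Krt7 made up 63.7% and 64.5% in KO and 51.8% in MUT, and at most 4.60% in any vehicle library. Within type I, Krt19 went from 17.0% and 16.4% in WT to 64.6% and 64.3% in KO, and from 26.9% in HET to 71.7% in MUT. Krt17 held 29.7% and 36.5% in WT and 31.0% in HET, but 4.51% and 3.92% in KO and 5.81% in MUT. These are shares of FPKM, so a share can grow because other chains shrank: the Krt19 level itself was lower in MUT than in HET.

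**Figure D3:**
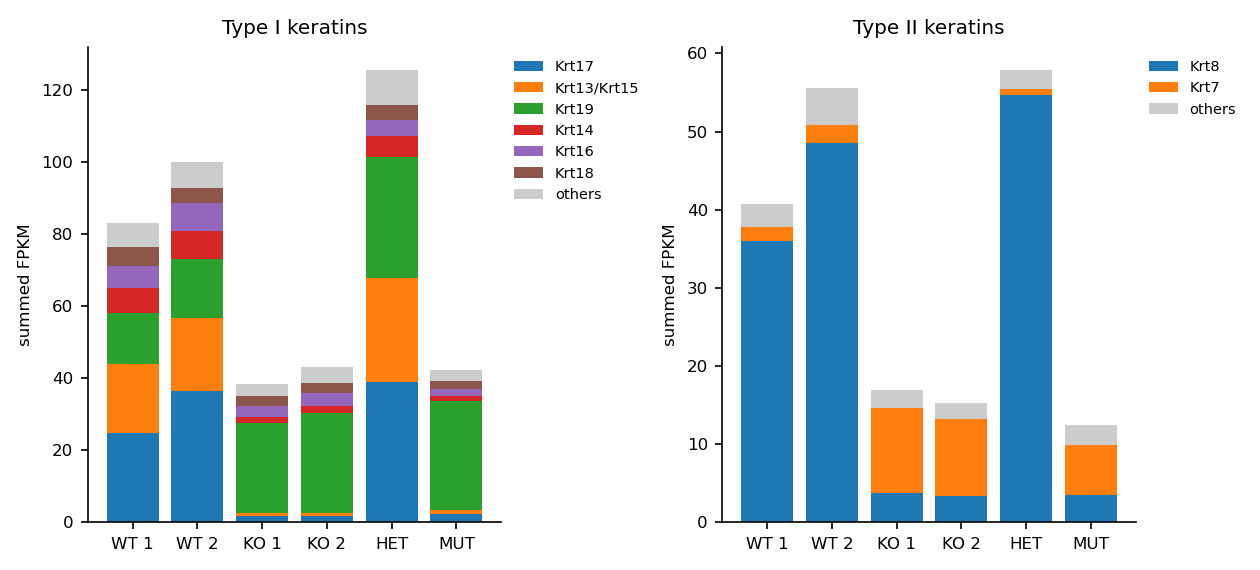
Summed FPKM of type I keratin rows (left) and type II keratin rows (right) in each library, divided by gene, with bars from 0 and the remaining keratins in grey. Krt8 fills most of the type II bars of WT and HET, and Krt7 most of those of KO and MUT, at 63.7%, 64.5% and 51.8%.

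Neighbouring keratin rows differed in direction in both clusters. On chromosome 11, Krt19 lies between the shared Krt13,Krt15 row and Krt14, and both of these were lower in KO while Krt19 was higher. On chromosome 15, Krt7 and Krt80 were higher in KO, and Krt6b, Krt8 and Krt18 lower. Krt42, 1.85 kb from Krt17, went from 2.78 and 3.27 FPKM in WT to 0.0689 and 0.0383 in KO.

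**Figure D4:**
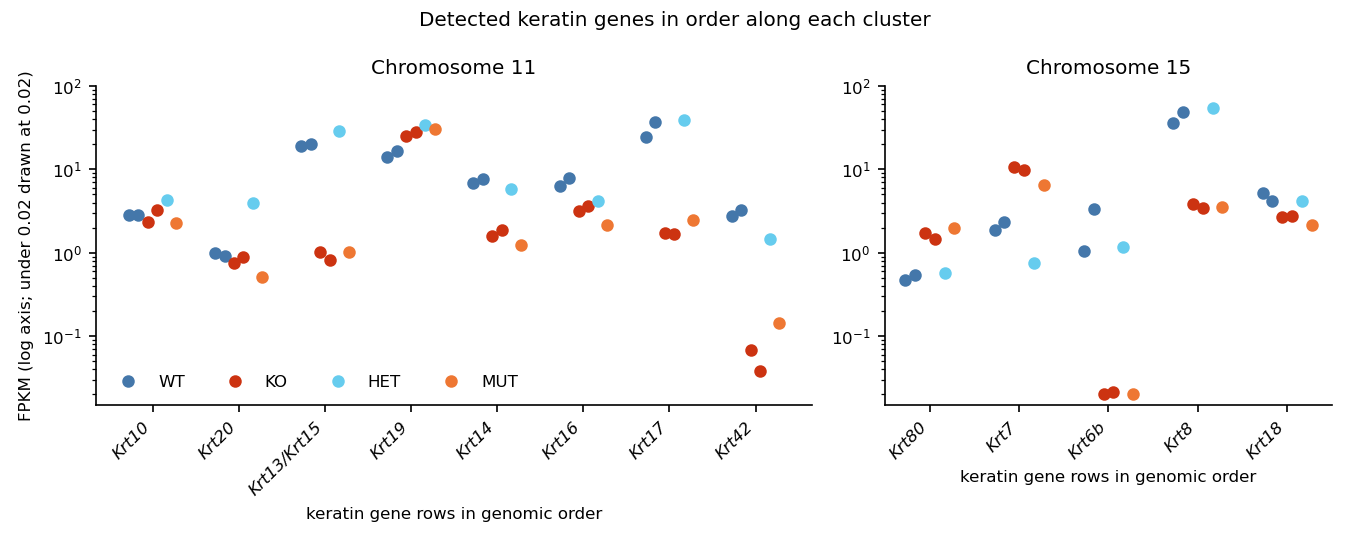
FPKM of the detected keratin rows in their order along chromosome 11 (8 rows) and chromosome 15 (5 rows), one point per library on a log axis, with values under 0.02 drawn at 0.02. Krt19 lies above its neighbours in the KO and MUT libraries, and Krt7 and Krt80 are the rows of chromosome 15 with higher KO than WT values.

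Genes of the same structures outside the set were taken from 8 lists, of which 7 had tested rows. Of 59 tested rows, 11 rose in KO against WT, 32 fell and 16 were not called by limma at an adjusted p under 0.05, against 29.5% higher and 28.2% lower among all tested genes. Of these rows 16 had passed the filter on low values only through vehicle libraries and 1 only through 4OHT libraries, so falls are favoured among them. Among the 32 rows with a mean of at least 5 FPKM over all libraries, 8 rose and 13 fell, against 32.4% and 25.0% of the 9005 tested genes with that mean. That mean takes in the vehicle libraries, so rows high only with vehicle, such as Tfap2c, still count and falls may still be favoured. The lists were chosen with earlier results of these libraries known, and genes named below as the only ones of a list that rose were picked after their values were seen.

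Of the other soft keratins, 6 of 20 rows were tested. Among them 4 fell, 1 rose and Krt10 was not called, with a median log2 difference of -1.21 against 0.02 over all tested genes. The row shared by Krt13 and Krt15, keratins of stratified mucosa and of hair follicle stem cells, fell from 19.2 and 20.2 FPKM in WT to 1.01 and 0.822 in KO (log2 -3.43, SE 0.11, adjusted p = 8.91e-09 in limma), with 28.9 in HET and 1.03 in MUT. Reads of the genes on that row are not separated. Krt42 fell by 1.93 on the log2 scale (adjusted p = 9.62e-07) and Krt16, a wound keratin, fell by 0.87 (adjusted p = 0.000253; without the filter 0.0691). Krt80 rose from 0.472 and 0.546 to 1.75 and 1.46 FPKM. Of the 6 tested rows, 2, Krt42 among them, had passed the filter only through vehicle libraries, which favours falls. Krt80 had passed it only through 4OHT libraries, which favours a rise. The 22 hair keratin rows were all under 1 FPKM, with a highest value of 0.332, and 13 were at 0 in all libraries.

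Of 16 desmosome genes other than the members, 9 were tested: 7 fell, none rose (also none at an unadjusted p under 0.05) and 2 were not called, with a median of -0.79. Jup, which encodes the plaque protein plakoglobin, fell from 26.9 and 25.6 FPKM in WT to 14.2 and 11.9 in KO (log2 -0.96, SE 0.11, adjusted p = 3.41e-05 in limma), with 34.0 in HET and 14.9 in MUT. Dsg2, the desmoglein of simple epithelium, fell by 1.17 on the log2 scale from 2.04 and 2.35 FPKM in WT, and Pkp4, a plakophilin relative, fell by 0.79. Without WT 2, 1 desmosome gene was called higher. Of these 9 genes, 5, Dsg2 among them, passed the filter only through vehicle libraries, which favours falls.

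Hemidesmosomes, which fix basal cells to the matrix, behaved unevenly. Of 5 tested rows, 2 rose, 1 fell and 2 were not called. Itgb4, the integrin chain particular to hemidesmosomes, fell from 26.9 and 24.7 FPKM in WT to 10.2 and 7.20 in KO (log2 -1.48, SE 0.14, adjusted p = 9.44e-06 in limma), with 38.0 in HET and 9.40 in MUT. Both rows that rose carry a second gene, Parp10 with Plec (log2 0.66, adjusted p = 0.000203) and Cracr2b with Cd151 (log2 0.76, adjusted p = 0.000168; without the filter 0.0511), so the rise is of the shared row.

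Of 39 rows for the cornified envelope and desquamation, 9 were tested, of which 6 fell, 1 rose and 2 were not called (median -1.11). Of these 9, 2 had passed the filter only through vehicle libraries. Krtdap, a secreted keratinocyte protein, fell from 62.7 and 67.9 FPKM in WT to 1.93 and 2.45 in KO (log2 -4.38, SE 0.11, adjusted p = 2.69e-09 in limma), with 97.0 in HET and 7.03 in MUT. S100a14 fell by 2.84 and Dmkn, which encodes dermokine, fell by 1.99 on the log2 scale. Klk8, a kallikrein protease, rose from 2.48 and 2.62 to 4.62 and 3.93 FPKM. Without WT 1 or without KO 1, 2 genes of the list were called higher. Cdsn therefore stood apart in direction from Krtdap, Dmkn and S100a14, genes that share its place in late epidermal differentiation, though no test of that contrast was made. These are the tested genes of smallest p in the list, and others of it did not fall. Klk8 rose like Cdsn. The uncalled Sbsn (log2 0.34, adjusted p = 0.0514 in limma) and Sprr2k (log2 0.21, adjusted p = 0.354) were also higher in KO.

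Of 20 epidermal transcription factors, 15 were tested: 10 fell, 4 rose and 1 was not called, with a median of -1.22, and 7 had passed the filter only through vehicle libraries. Hopx, an atypical homeodomain factor, fell from 115 and 117 FPKM in WT to 9.17 and 8.90 in KO (log2 -3.54, SE 0.09, adjusted p = 2.83e-09 in limma). Tfap2c fell by 3.57 from a WT mean of 15.0 FPKM, and Grhl3, a grainyhead factor of the skin barrier, fell by 1.80. Tfap2c and Grhl3 are among the 7 that passed the filter only through vehicle libraries, which favours falls. The 4 that rose were Klf4, Klf5, Maf and Cebpb, and without the filter 0 were called higher. Klf4 is also one of the OSKM factors, and its endogenous and introduced copies are not separated here; it read 21.1 and 16.5 FPKM in WT and 37.5 and 34.5 in KO. Cebpb rose from 51.5 and 59.5 to 84.4 and 65.4 FPKM (log2 0.42, SE 0.13, adjusted p = 0.0187 in limma), a call that was lost without WT 1 (0.148) or without KO 1 (0.0964).

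Among 9 tested intermediate filament genes that are not keratins, 4 fell, 2 rose and 3 were not called, with a median of -0.14. Vim, which encodes the vimentin of mesenchymal cells, was the most abundant, at 1728 and 1737 FPKM in WT, 1720 and 1842 in KO, 1100 in HET and 1632 in MUT, and was not called (log2 0.04, SE 0.10, adjusted p = 0.766 in limma). Nefl, a neurofilament chain, fell by 3.95 and Lmnb1, the lamin B1 gene, fell by 3.03 on the log2 scale, whereas Sync, which encodes syncoilin, rose by 1.24 from 2.18 to 6.51 FPKM in the mean. Nes, the nestin gene, was the other that rose, from 6.27 and 5.35 to 9.95 and 10.9 FPKM. The keratin totals were thus lower in KO, where vimentin RNA was not called as changed against WT. In MUT, where the totals were also lower, vimentin RNA was above that of HET (log2 0.57), which was not tested.

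The 6 other 14-3-3 genes were all expressed, and 1 rose, none fell and 5 were not called (1 was lower at an unadjusted p under 0.05). Ywhag rose from 141 and 130 FPKM in WT to 201 and 225 in KO (log2 0.65, SE 0.10, adjusted p = 0.000339 in limma). Ywhae, the most abundant of them, read 322 and 343 in WT and 272 and 289 in KO (log2 -0.24, adjusted p = 0.0539; 0.00896 to 0.0452 where another scaling of the libraries was used), and Ywhaz 186 and 201 against 168 and 171 (log2 -0.19, adjusted p = 0.115). Sfn differed by -1.58 on the same scale. Without KO 1, 2 of the 6 were called higher, and without KO 2, 1 was called lower.

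**Figure D5:**
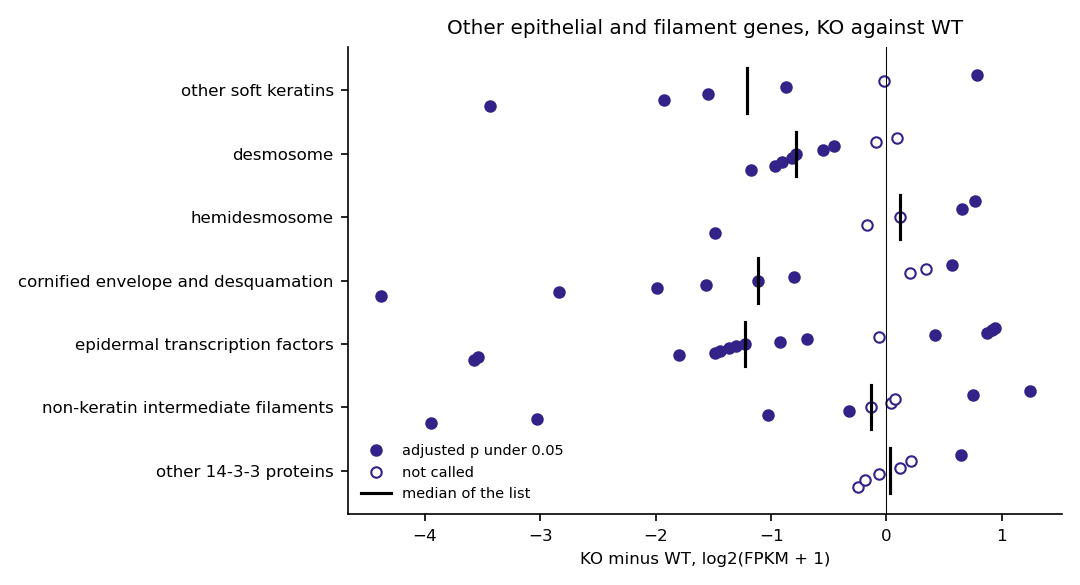
Log2 difference of KO against WT on the log2(FPKM + 1) scale for each tested row of 7 lists, filled where limma's adjusted p was under 0.05, with a bar at the list's median. The lowest medians are those of epidermal transcription factors (-1.22) and other soft keratins (-1.21), and the medians of hemidesmosome and 14-3-3 genes lie close to 0.

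Markers of keratinocytes did not accompany the epidermal genes in full. Krt1 was at most 0.198 FPKM, Ivl at most 0.0844 and Lor at most 0.957 in any library, and Flg had no row. Trp63, the master factor of stratified epithelium, read 0.567 and 0.581 in WT, 0.0431 and 0.0565 in KO, 0.409 in HET and 0.261 in MUT, and was under the filter. Krt10 read 2.29 to 4.28 FPKM and was not called (log2 -0.02, adjusted p = 0.908 in limma). Of the list's 9 rows, 7 were under 1 FPKM in all libraries, Krt5, Dsg3 and Col17a1 among them. The row shared by Krt13 and Krt15 was the most abundant and moved with Krt14 and Krt17. It read 19.2 and 20.2 FPKM in WT, 1.01 and 0.822 in KO, 28.9 in HET and 1.03 in MUT. The label epidermal is therefore used for the known role of the genes and not for the cells. Trophoblast markers, which mark another embryonic epithelium that uses Krt7, Krt8 and Krt18, summed to 7.67 and 7.65 FPKM in WT, 14.3 in each KO library, 5.06 in HET and 7.58 in MUT, with 2 of 3 tested rising and 7 of 10 under 1 FPKM throughout. Gata3 carried most of the rise, at 3.70 and 3.65 FPKM in WT and 10.2 and 9.91 in KO, and Hand1 was the other that rose. Eomes was not called. Of those under 1 FPKM, Elf5, Gcm1, Ascl2 and Cdx2 were lower in both KO libraries than in both WT libraries, and Prl3d1 and Psg17 were higher. In MUT, 2 of the 3 tested were lower than in HET. Endoderm markers summed to between 2.58 and 3.49 FPKM. The macrophage list, at 652 and 641 FPKM in WT, 440 and 455 in KO, 780 in HET and 447 in MUT, was carried by a row that Cd68 shares with other genes. The part of other cell types in the keratin levels was not tested.

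In the test of the MUT against HET effect minus the KO against WT effect, 492 genes, or 4.01% of tested genes, were called. With 1 library each of HET and MUT, genes that were not called are not shown to have equal effects. Among the 59 list rows 7 were called, or 11.9%. Hopx was one, with log2 differences of -3.54 in KO against WT and -2.26 in MUT against HET (difference 1.29, adjusted p = 0.00209 in limma), ending at 17.5 FPKM in MUT from 87.5 in HET. Cebpb was another (difference 0.96, adjusted p = 0.0435), at 32.3 FPKM in HET and 85.8 in MUT, a call that was lost without WT 1 (0.0684) or WT 2 (0.132). HET and MUT are assumed in that fit to vary like the WT and KO replicates. The count was 286 without WT 2, 1192 without KO 1 and 904 without KO 2.

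Likeness of pattern was measured as the root mean square difference between log2 values over the 6 libraries, each gene centred on its own mean. It was taken over 8665 of the tested genes averaging 5 FPKM or more. Small RNA, predicted, LOC and Rik names were left out by their spelling, a rule that also drops other names, such as those starting with Rn. The nearest to Krt8 were Sigirr (0.15), Krt17 (0.16) and the Krt13,Krt15 row (0.17), and the nearest to Krt17 were Fetub (0.12), Krt8 (0.16) and Sigirr (0.17). Sigirr read 15.6 and 18.4 FPKM in WT, 0.925 and 1.04 in KO, 25.0 in HET and 1.39 in MUT. A type II and a type I keratin on different chromosomes were thus the closest pair of members, while Krt8 and its partner Krt18 were 1.39 apart. Krt18 was nearer to Perp (0.17).

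The nearest to Krt7 were Filip1l (0.15), Isg20 (0.16), an interferon-induced exonuclease, and Ankrd1 (0.16). Filip1l read 11.0 and 12.1 FPKM in WT, 51.4 and 51.6 in KO, 8.44 in HET and 34.2 in MUT. None of the genes compared came close to Cdsn: its nearest were the chemokine gene Ccl5 (0.57), the stress factor gene Ddit3 (0.69) and the interferon-induced Ifit2 (0.81). Ccl5 read 11.1 and 12.3, 151 and 156, 5.61 and 86.9 FPKM in the same order. The low HET value of Cdsn is part of that distance, and the farthest pair of members was Krt17 and Cdsn (4.05).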

How the data were processed

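Per the labels' protocols, TRIzol was used to extract total RNA at day 7 and Ribo-Zero to remove ribosomal RNA. The authors deposited 1 FPKM value for each row, per the file headers, written with decimal commas. The tools TopHat2 2.1.1, Cufflinks 2.2.1 and Bowtie2 2.3.0 and the builds GRCm38 and mm10 come from the submitters' processing notes, while their roles, the annotation, strand and scaling between libraries are not given there. Each table has 24879 rows, of which 1021 without a gene name (8.26% to 14.2% of all FPKM) were left out and 561 naming several genes were kept unsplit; for a name on several rows the one with the highest mean was used.

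The test was limma 3.58.1 (R 4.3.3) on log2(FPKM + 1), two-sided, using lmFit and eBayes with a trend, with Benjamini-Hochberg adjustment over 12266 tested genes and calls under 0.05. KO against WT used 4 libraries, and the difference of effects used 4 group means over 6 libraries. HET and MUT have 1 library each, so MUT against HET, HET against WT and MUT against KO were described without a test. The fits were also run on simulated data in which few genes changed, all upward, and all libraries varied like the WT and KO pairs. In the real data many genes were called in both directions. The simulation cannot check whether HET and MUT vary like WT and KO. SDs are over FPKM of 2 libraries.

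The members and lists were chosen with earlier results of these data known. Named genes are the 10 members, in each list the 3 tested genes of smallest p and the most abundant tested gene, 8 keratinocyte markers, and the 3 genes nearest in pattern to Krt8, Krt17, Krt7 and Cdsn. Outside this rule, Krt80, Krt6b, Klk8, Sbsn, Sprr2k, Nes, Klf4, Klf5, Maf and the trophoblast markers were named after their values were seen. The neighbours of Cdsn were named for their position. Alternatives were other pseudocounts, no filter, 3 other scalings, summed rows, all 6 libraries in the fit, a replicate block and each WT or KO replicate left out. Apart from the start regions printed, 1 further start region is not reported here.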

Additional observations from a re-analysis of the deposited data

Results flagged for a closer look

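For Hopx the effect of MUT against HET differed from that of KO against WT by a log2 of 1.29 in limma's test of the difference (adjusted p = 0.00209, and 2.07e-09 to 0.0146 over the alternatives). For Cebpb the same difference was 0.96 (adjusted p = 0.0435); it was not called with a pseudocount of 0.1 (0.0545), without the filter (0.432), without WT 1 (0.0684) or without WT 2 (0.132). Krt19 was higher in both KO libraries than in both WT libraries but lower in MUT than in HET, by a log2 of -0.15, and this difference between backgrounds was not tested because Krt19 was chosen on these values.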

How the results depend on the processing

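No member changed direction in KO against WT or in MUT against HET under the alternatives run for them, which did not cover HET against WT or MUT against KO, and 36 recomputed member differences moved by more than the spread between replicates while 124 did not. Without the filter, 4433 genes were called in KO against WT in place of 7080, 1973 of them higher in place of 3617, with 2 soft keratins, 1 hemidesmosome row, 2 cornified envelope genes and 0 epidermal transcription factors higher and 10 cornified envelope genes lower. Cornified envelope genes called higher, 1 as reported, were 3 after quantile normalization and 2 under median-of-ratios scaling. The 14-3-3 genes called lower, 0 as reported, were 2 after quantile normalization, 1 under median-of-ratios scaling and 1 when named rows were scaled to an equal sum. With a pseudocount of 5, 755 genes differed by at least 2-fold between MUT and HET in place of 1681, and 118 between HET and WT in place of 303, which were 610 with a pseudocount of 0.1. Among list genes, 42 to 45 were called under all alternatives, against 43.

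Leaving out 1 WT or KO library gave 286 (without WT 2) to 1192 (without KO 1) genes for the difference of effects, against 492. In KO against WT it gave 5739 to 6849 genes, 0 to 1 desmosome genes higher, 1 to 2 cornified envelope genes higher, and 1 to 2 14-3-3 genes higher and 0 to 1 lower. The lone library is then assumed to vary like the others.

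WT and KO share only replicate numbers (r = 0.18 between their replicate deviations). With a replicate block, 7959 genes were called, 2 cornified envelope genes higher and 1 14-3-3 gene lower (Ywhae, adjusted p = 0.0341). Depth limits Krt14 most, with an estimated 29 fragments in its lowest library, while the widest standard error among members is that of Krt17 (0.16).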
